A study of Mus musculus with 2 samples.

Results

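Heat shock proteins and the other chaperones described here are the 86 genes, of 55536 in the tables, whose symbols begin with Hspa, Hspb, Hspd, Hspe, Hsph, Hsp90, Dnaja, Dnajb, Dnajc, Pdia followed by a number, or with Cct and a digit from 2 to 8, without symbols marked as pseudogenes (-ps). The rule used names only and no measured value. Polyadenylated RNA was sequenced from macrophages that had been grown from bone marrow of C57BL/6J mice. Every culture received 100 ng/mL of Lipid A over 12 h, then a washout of 12 h, then a second exposure to 100 ng/mL lasting 30 min. Lipid A, the lipid anchor of bacterial lipopolysaccharide and the ligand of Tlr4, is named in the free text of the labels, whereas their treatment field says lipoprotein A. The only group held 2 biological replicates, replicate 2 with 30780681 and replicate 1 with 41938419 counts assigned to genes. The replicates are separate biosamples with the same donor record, and whether they came from separate animals is not stated, so their spread may be partly technical. No untreated library was analysed here, so each value describes restimulated cells, and none describes induction.

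Chaperones help other proteins reach and keep their folded shape. Hsp70 proteins bind exposed stretches of client proteins in cycles driven by ATP, J proteins (Dnaj) start that cycle and choose its clients, and Hsp110 proteins and Bag proteins release the nucleotide to end it. Hsp90 completes the folding of kinases and receptors with its own co-chaperones, the CCT ring and Hsp60 with Hsp10 enclose their clients in a chamber, and protein disulfide isomerases form and exchange disulfide bonds in the endoplasmic reticulum (ER). In macrophages, ER chaperones serve the secretion of cytokines and the assembly of MHC molecules. Heat shock factors drive the heat-inducible members, whereas the regulators Atf6, Xbp1 and Atf4 drive those of the ER.

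Levels are given in TPM, a relative abundance of transcripts that is scaled for their length and so can be compared between genes. Unless stated otherwise they come from the table the authors derived from an alignment (mm10, GENCODE M21), and not from the one derived directly from FASTQ files. A gene was called detected at 1 TPM or more in both libraries. Of the 86 chaperone genes 67 were detected, or 77.9%, beside 48.7% of all protein-coding genes, and 16, or 18.6%, reached 100 TPM in both, beside 5.56%. One of the 86, Cct6a, is not annotated as protein-coding in the release used. The median chaperone gene stood at 17.0 TPM in replicate 2 and 19.3 TPM in replicate 1, beside 0.980 and 0.910 TPM for all protein-coding genes. Together the chaperones took 6994 TPM in replicate 2 and 7069 TPM in replicate 1, or 0.699% and 0.707% of all transcripts. These sums were unevenly divided, since the most abundant gene, Hspa8, held 26.3% of chaperone TPM in replicate 2 and 25.3% in replicate 1, and the leading 5 genes held 54.4% and 52.7%. No counts at all were assigned in either library to 7 genes, Cct8l1, Dnajb8, Dnajc5b, Dnajc5g, Dnajc22, Hspb3 and Pdia2, which allows up to 3 counts, or 0.0975 CPM (counts scaled to the library total) in replicate 2 and 0.0715 CPM in replicate 1.

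**Figure D1:**
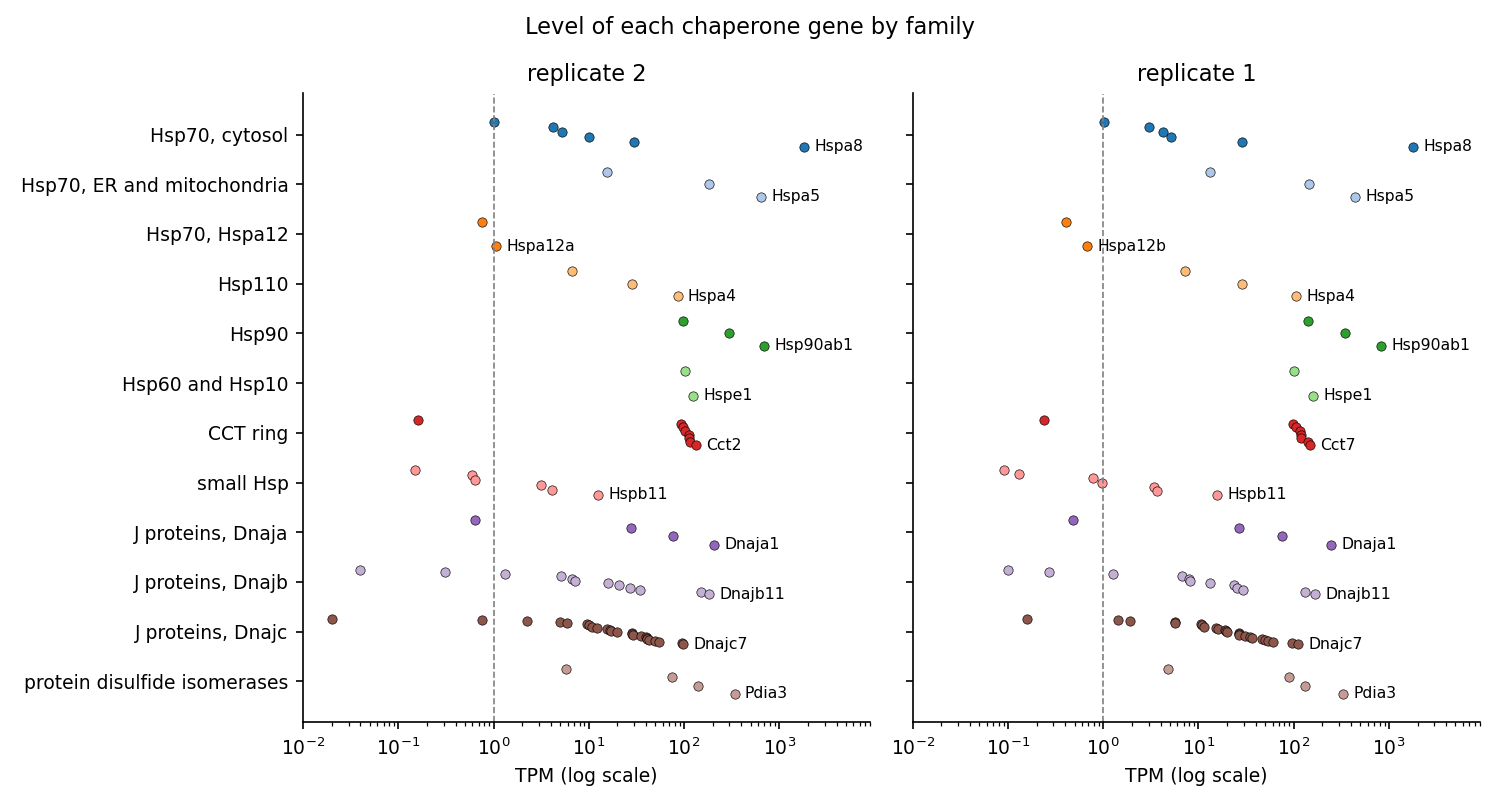
Level of each chaperone gene in TPM on a log axis, 1 point per gene, by family, in replicate 2 (left) and replicate 1 (right). Genes at 0 TPM are not drawn, the dashed line marks 1 TPM, and the highest gene of each family is named. Hspa8 stands at 1838 TPM in replicate 2 and 1789 TPM in replicate 1, apart from every other cytosolic Hsp70 gene.

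The cytosolic Hsp70 genes ranged from a mean of 1.01 TPM to one of 1814 TPM. Hspa8 encodes Hsc70, the constitutive form, and was the 48th most abundant protein-coding gene (ENSMUSG00000015656.17, mm10 chromosome 9, 40800984 to 40810087, plus strand), at 1838 TPM in replicate 2 and 1789 TPM in replicate 1. Hspa1a and Hspa1b, the heat-inducible forms, lie as near-identical copies on chromosome 17. Hspa1a (34969190 to 34972156, minus strand) had 10.1 TPM in replicate 2 and 5.18 TPM in replicate 1. Hspa1b (34956436 to 34959238, minus strand) had 5.25 TPM in replicate 2 and 2.99 TPM in replicate 1. The constitutive gene was therefore 183 times as abundant as Hspa1a in replicate 2 and 345 times in replicate 1. These multiples depend on how reads were divided between Hspa1a and Hspa1b, and would be smaller against their sum of 15.3 and 8.17 TPM. Hspa14, a ribosome-associated form, averaged 29.3 ± 0.636 TPM (SD, n = 2), and Hspa2 and Hspa1l, forms known for high levels in the testis, averaged 4.25 ± 0.00707 and 1.01 ± 0.0141 TPM.

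The promoters of Hspa1a and Hspa1b are shown because these were the chaperones furthest apart between the libraries at 100 or more counts. Both runs give the 250 bases before the RefSeq start site (GRCm38.p6, the mm10 build), read 5′ to 3′ on the minus strand, and the capitals mark GAANNTTC, the arrangement of inverted GAA units to which heat shock factors bind.

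Hspa1a, chr17:34972157-34972406: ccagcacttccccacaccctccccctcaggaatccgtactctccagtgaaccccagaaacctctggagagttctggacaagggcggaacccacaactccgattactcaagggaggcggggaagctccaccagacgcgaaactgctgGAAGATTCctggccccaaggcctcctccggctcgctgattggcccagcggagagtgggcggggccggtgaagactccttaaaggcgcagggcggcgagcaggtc

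Hspa1b, chr17:34959239-34959488: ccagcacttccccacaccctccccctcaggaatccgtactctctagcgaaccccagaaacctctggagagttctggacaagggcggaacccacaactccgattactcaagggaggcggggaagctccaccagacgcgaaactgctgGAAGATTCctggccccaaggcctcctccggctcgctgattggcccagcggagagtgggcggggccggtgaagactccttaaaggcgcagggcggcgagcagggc

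The 2 runs differed at 3 of 250 bases, counted from the first base printed, as C44T, T47C and T249G with the Hspa1a base first. In both, the GAANNTTC match lay 96 bases before the start. The transcripts also shared sequence, with 63.8% of the 31-base words of Hspa1a also found in Hspa1b and 67.6% of those of Hspa1b found in Hspa1a. Reads from within these words cannot be assigned to either gene, so the split between them is uncertain, whereas their sum is not touched by it. Summed, the pair had 15.3 TPM in replicate 2 and 8.17 TPM in replicate 1.

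Among the organelle Hsp70 genes, Hspa5 encodes BiP, the main Hsp70 of the ER (ENSMUSG00000026864.13, chromosome 2, 34771970 to 34777547, plus strand). It stood at 643 TPM in replicate 2 and 437 TPM in replicate 1, below only Hspa8 and Hsp90ab1 among the chaperones by its mean. Hspa9, the mitochondrial Hsp70 mortalin, had 185 TPM in replicate 2 and 143 TPM in replicate 1. Hspa13, a less studied microsomal form, had 15.5 TPM in replicate 2 and 13.3 TPM in replicate 1. All 3 were higher in replicate 2. The divergent Hspa12a and Hspa12b, at means of 0.740 and 0.720 TPM, were not detected by the rule used.

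The Hsp110 genes, whose products exchange the nucleotide of Hsp70, were led by Hspa4 at 95.2 ± 13.7 TPM (SD, n = 2). Hsph1, the heat-inducible form, averaged 28.4 ± 0.460 TPM, and Hspa4l was lowest at 6.95 ± 0.339 TPM.

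All 3 Hsp90 genes were at high levels, and all 3 were lower in replicate 2. Hsp90ab1, the constitutive cytosolic form (ENSMUSG00000023944.14, chromosome 17, 45567775 to 45573271, minus strand), had 691 TPM in replicate 2 and 823 TPM in replicate 1. Hsp90b1, the ER form known as Grp94, had 295 and 348 TPM in replicates 2 and 1. Hsp90aa1, the inducible cytosolic form, had 98.5 TPM in replicate 2 and 142 TPM in replicate 1. The constitutive form thus exceeded the inducible one 7.02 times in replicate 2 and 5.79 times in replicate 1.

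The subunits of the CCT ring, which folds actin and tubulin, stood at nearly even levels. Its 7 subunits among the members ran from 93.5 TPM for Cct4 to 133 TPM for Cct2 in replicate 2, and from 97.7 TPM for Cct4 to 147 TPM for Cct7 in replicate 1, so the highest exceeded the lowest 1.43 times in replicate 2 and 1.51 times in replicate 1. Tcp1, the subunit outside the symbol rule, fell inside this range at 103 TPM in replicate 2 and 109 TPM in replicate 1. Cct2 at 138 ± 5.91 TPM and Cct4 at 95.6 ± 2.96 TPM (SD, n = 2) differed by more than the spread between the libraries. The others, Cct3, Cct5, Cct6a, Cct7 and Cct8, had means between 108 ± 13.7 TPM for Cct8 and 131 ± 23.1 TPM for Cct7, and the libraries of these last 2 subunits overlapped. Cct6b, a testis form, averaged 0.20 TPM.

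Hspd1 and Hspe1, which encode the mitochondrial chaperonin Hsp60 and its lid Hsp10, are neighbours on opposite strands of chromosome 1, with start sites 111 bases apart and annotated exons that share 112 bases. Hspe1 had 126 TPM in replicate 2 and 159 TPM in replicate 1. Hspd1 had 102 TPM in replicate 2 and 99.6 TPM in replicate 1. Per transcript length Hspe1 thus stood at 1.23 times Hspd1 in replicate 2 and 1.60 times in replicate 1. A run before Hspe1 is shown because it holds 3 overlapping inverted pairs of GAA units, TTCNNGAA, GAANNTTC and TTCNNGAA, all in capitals. It lies inside an annotated exon of the transcript Hspd1-202, on the opposite strand.

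Hspe1, chr1:55088059-55088076, plus strand, 71 bases before the RefSeq start: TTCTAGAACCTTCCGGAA

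The small heat shock proteins, which hold unfolded proteins without ATP, were low among the chaperones. Of 8 Hspb genes 3 were detected, beside 48.7% of all protein-coding genes. The median of the 8 stood at 0.620 TPM in replicate 2, against 0.875 TPM in replicate 1. For all protein-coding genes these medians were 0.980 and 0.910 TPM. Hspb11, a member by its symbol that is better known as an intraflagellar transport subunit, was highest with 12.5 TPM in replicate 2 and 15.6 TPM in replicate 1. Hspb1, the heat-inducible Hsp27 homologue, had 4.11 TPM in replicate 2 and 3.39 TPM in replicate 1, from 54 and 60 counts. Hspb6 was the lowest detected at 3.44 ± 0.361 TPM (SD, n = 2).

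The J proteins were the largest family, with 36 of 45 genes detected, and held 21.1% of chaperone TPM in replicate 2 and 21.2% in replicate 1. Dnaja1, a main partner of cytosolic Hsc70, led them with 207 TPM in replicate 2 and 244 TPM in replicate 1. Dnajb11, the ER co-factor of BiP known as ERdj3, had 182 TPM in replicate 2 and 169 TPM in replicate 1. Dnajb6, which keeps aggregation-prone proteins soluble, averaged 141 ± 14.5 TPM (SD, n = 2), and Dnajc7, which links Hsp70 to Hsp90, 104 ± 8.55 TPM. The heat-inducible Dnajb1 was modest at 20.7 TPM in replicate 2 and 23.6 TPM in replicate 1. Dnajb9 (ERdj4) had 34.2 TPM in replicate 2 and 25.7 TPM in replicate 1. Dnajc3 (p58IPK) had 17.1 TPM in replicate 2 and 19.1 TPM in replicate 1. Both are ER co-factors of BiP. The lowest detected J proteins of the 3 classes were Dnaja3 at 27.1 ± 0.990 TPM, Dnajb13 at 1.31 ± 0.0354 TPM and Dnajc27 at 2.10 ± 0.233 TPM. Dnajb13 shares 305 exon bases on opposite strands with Ucp2, at 511 TPM in replicate 2 and 713 TPM in replicate 1, and the use of strand in counting was not given in the sources used here.

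Of the protein disulfide isomerases named Pdia, 4 of 5 were detected. Pdia3 (ERp57), the partner of calnexin and calreticulin and a part of the MHC class I loading complex, had 339 TPM in replicate 2 and 331 TPM in replicate 1. Pdia6 averaged 136 ± 6.46 TPM, Pdia4 82.5 ± 9.55 TPM and Pdia5 5.27 ± 0.693 TPM (SD, n = 2).

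The libraries were compared as replicate 2 over replicate 1, as a log2 ratio of counts scaled for library size, with an exact 95% interval that covers counting error only. With 1 library on each side there is no replicate check and no test, and the biological coefficient of variation between the libraries was 17.1% over 12804 genes. Of 71 chaperone genes with 20 or more counts in each library 32 were higher in replicate 2 and 39 lower, or 45.1% and 54.9%, beside 46.4% and 53.6% of all 12471 such genes. The median log2 ratio of chaperones was -0.01, beside -0.03 for all genes. A ratio of 2-fold or more was met by 1 chaperone gene in the higher direction, or 1.41%, beside 1.94% of all genes, and by 0 in the lower, beside 0.521%. At 1.5-fold the counts were 4 higher, or 5.63%, beside 6.22% of all genes, and 0 lower, beside 3.21%. As a list, the chaperones thus differed between the libraries about as often as other genes in the higher direction.

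**Figure D2:**
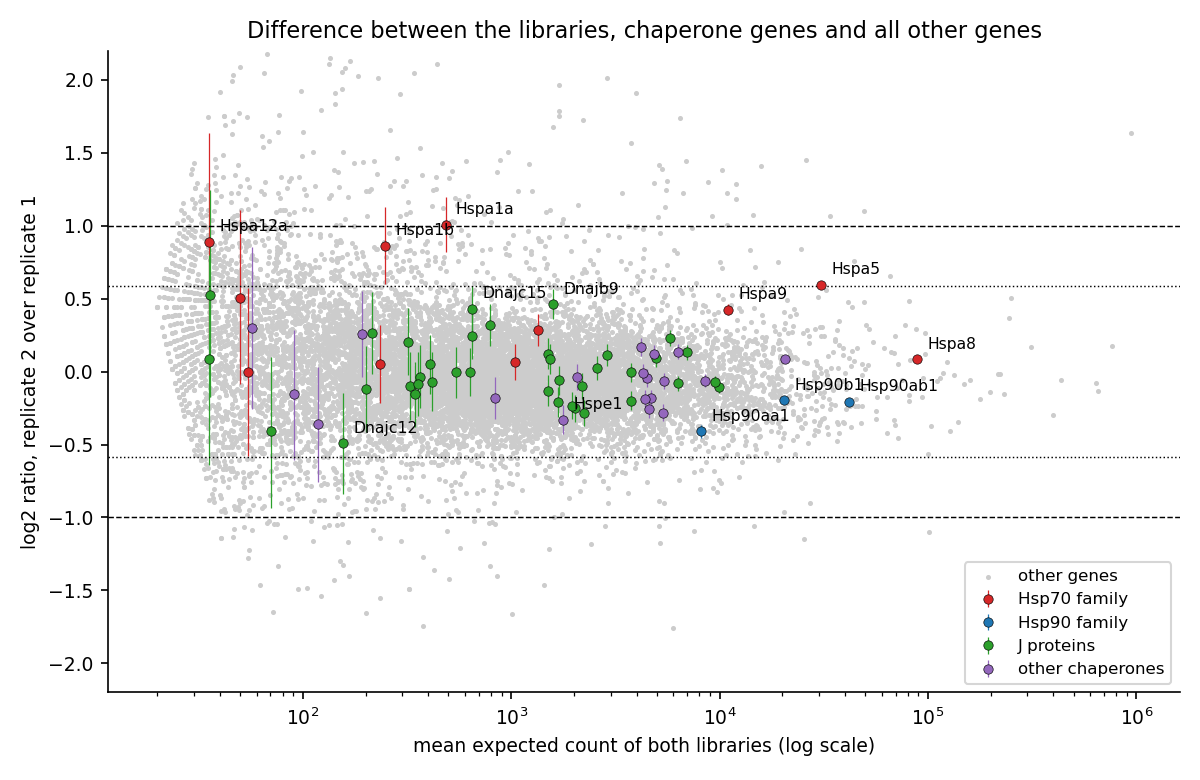
Log2 ratio of replicate 2 over replicate 1 against the mean expected count of both libraries (log axis), for the 71 chaperone genes with 20 or more counts in each library, coloured as Hsp70, Hsp90, J proteins and the rest, and for 12400 other genes in grey. Bars are exact 95% intervals for counting error, dashed lines mark 2-fold and dotted lines 1.5-fold, and 23 other genes lie outside the axis. Hspa1a, at 1.01, is the chaperone furthest from 0.

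The 4 genes past 1.5-fold all belonged to the Hsp70 family. Hspa1a had 576 counts in replicate 2 and 392 counts in replicate 1, a log2 ratio of 1.01 (interval 0.82 to 1.20). Hspa1b had 282 counts in replicate 2 and 212 counts in replicate 1, a log2 ratio of 0.86 (0.60 to 1.13). The summed pair, 858 counts in replicate 2 and 604 in replicate 1, gave 0.96 (0.81 to 1.11), a value that does not depend on how reads were divided between the copies. Hspa5 had 32041 counts in replicate 2 and 29041 counts in replicate 1, a log2 ratio of 0.60 (0.57 to 0.62). Hspa12a, at 41 counts in replicate 2 and 30 counts in replicate 1, gave 0.89 with a wide interval of 0.19 to 1.63, and was named after its value was seen. In the whole Hsp70 family 10 of 11 genes were higher in replicate 2, beside 46.4% of all genes. Among them were Hspa9 at 0.42 (0.39 to 0.46) and Hspa8, close to even, at 0.08 (0.07 to 0.10). The exception, Hspa1l, stood at -0.00 (-0.58 to 0.57). Hspa14, Hspa2 and Hspa12b were among the higher genes, but their intervals included 0. In the FASTQ-derived counts, the other deposited quantification, Hspa1a gave 0.97, short of 2-fold, Hspa1b 0.84 and Hspa5 0.55, short of 1.5-fold.

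Lower values in replicate 2 were found in all 3 Hsp90 genes, all 3 Hsp110 genes and 6 of 7 CCT subunits, beside 53.6% of all genes. Of these, Hsph1, Cct4 at -0.01 (-0.07 to 0.05) and Cct5 at -0.05 (-0.11 to 0.02) had intervals that included 0. Hsp90aa1 had 5758 counts in replicate 2 and 10471 in replicate 1, a log2 ratio of -0.41 (interval -0.46 to -0.36). Hsp90ab1 gave -0.21 (-0.23 to -0.19) and Hsp90b1 -0.20 (-0.23 to -0.17). The lowest ratio of all with 100 or more counts belonged to Dnajc12, known in human as a co-chaperone of aromatic amino acid hydroxylases, at -0.49 (-0.84 to -0.15) from 107 counts in replicate 2 and 206 in replicate 1. After Hsp90aa1 came Hspb11 at -0.36 (-0.76 to 0.03), an interval that includes 0, then Hspe1 at -0.33 (-0.43 to -0.23), and Dnajc11, a protein of the mitochondrial membranes, at -0.28 (-0.37 to -0.20). Hspd1 gave 0.12 (0.06 to 0.18), so the neighbours Hspe1 and Hspd1 lay on opposite sides of 0. Among J proteins 16 of 38 were higher in replicate 2, led at 100 or more counts by Dnajb9 at 0.46 (0.36 to 0.56) and Dnajc15, a J protein of the mitochondrial inner membrane, at 0.43 (0.27 to 0.59). The sign of the ratio was the same in both deposited quantifications for 68 of the 71 genes, and the other 3, Dnajc8, Dnajc19 and Hspa1l, were within 0.06 of 0 in both.

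Grouped by use, the 6 heat-inducible members did not move together. Hspa1a and Hspa1b, with Hspb1 at 0.30 (-0.26 to 0.86), were higher in replicate 2. Hsp90aa1, with Dnajb1 at -0.13 (-0.24 to -0.03) and Hsph1 at -0.04 (-0.13 to 0.05), was lower. Of 11 constitutive cytosolic members listed by hand 2 were higher and 9 lower, beside 46.4% and 53.6% of all genes. Their median was -0.06. That list held Hspa8, Hsp90ab1, Hspa4, Dnaja1, Dnaja2 and the CCT subunits already counted as lower. It left out Cct6a at 0.17 (0.11 to 0.23) and Hspa14 at 0.065 (-0.061 to 0.191), both higher. Of 12 ER members listed by hand 9 were higher, beside 46.4% of all genes, with a median of 0.12. Of those higher, Dnajc1 and Pdia5 had intervals that included 0. The exceptions in that list were Hsp90b1, Pdia4 at -0.19 (-0.25 to -0.12) and Dnajc3 at -0.10 (-0.19 to -0.01). J proteins of the ER membrane left off it lay on both sides. Dnajb12 at -0.06 (-0.16 to 0.04), Dnajb14 at -0.21 (-0.31 to -0.11) and Dnajc16 at -0.23 (-0.33 to -0.14) were lower, and Dnajc18 at 0.24 (0.08 to 0.40) was higher. Of 9 mitochondrial members listed by hand 5 were higher and 4 lower. These groups were chosen with earlier results of these data known.

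**Figure D3:**
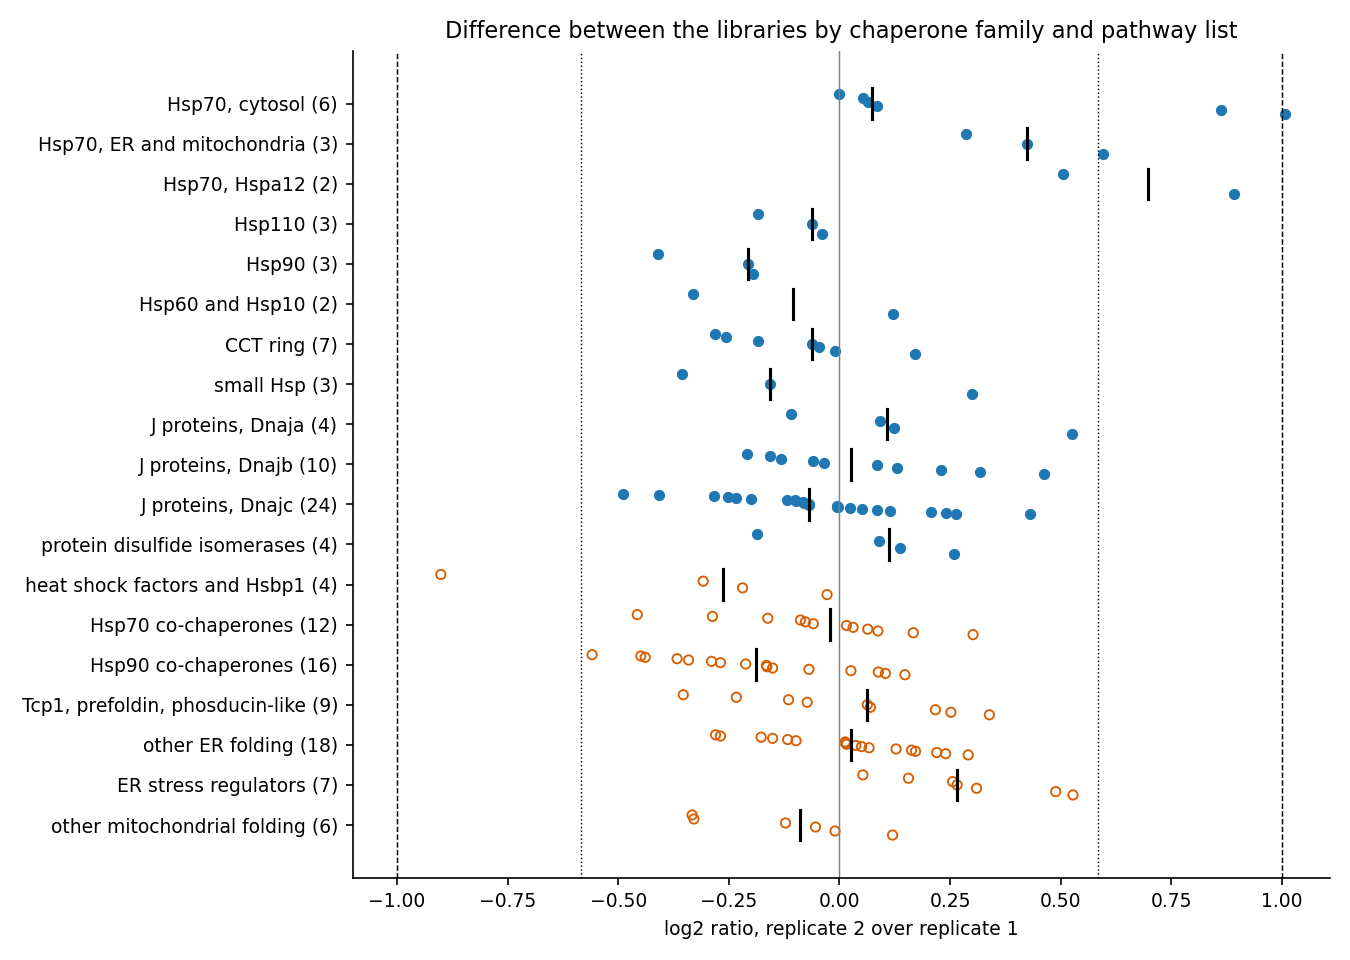
Log2 ratio of replicate 2 over replicate 1 for each gene with 20 or more counts in each library, by chaperone family (filled points) and by list of other pathway genes (open points), with the number of genes in brackets. Black bars are medians of the points drawn, dotted lines mark 1.5-fold and dashed lines 2-fold. The 3 Hsp90 genes all lie below 0, and the 3 Hsp70 genes of the ER and mitochondria and the 7 regulators of ER stress all lie above it.

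Genes that work with the chaperones but lie outside the symbol rule were described from 7 lists, in which none passed 2-fold and only Hsf4, at -0.90 (-1.44 to -0.39) from 44 counts in replicate 2 and 113 in replicate 1, passed 1.5-fold. The lists were chosen with earlier results of these data known. Hsf1, the main heat shock factor, stood at 12.0 TPM in replicate 2 and 13.5 TPM in replicate 1, with a log2 ratio of -0.22 (-0.40 to -0.04). All 4 measured genes of the heat shock factor list were lower in replicate 2, beside 53.6% of all genes. Of these, Hsf2 was close to even at -0.028 (-0.225 to 0.167), an interval that includes 0. Hsbp1, a binding partner of Hsf1, was highest at 151 ± 25.7 TPM and Hsf4 lowest at 2.10 ± 0.955 TPM (SD, n = 2). The 16 co-chaperones of Hsp90 were all detected, and 12 were lower in replicate 2, beside 53.6% of all genes, with a median of -0.19. Of those lower, Ahsa2 and Chordc1 had intervals that included 0. Their levels ran from 216 ± 22.6 TPM for Ahsa1, which stimulates the ATPase of Hsp90, to 4.67 ± 0.212 TPM for Fkbp5. The 12 co-chaperones of Hsp70 divided evenly, 6 higher and 6 lower (4 higher in the FASTQ-derived counts). They ranged between Bag1 at 203 ± 5.47 TPM and Bag2 at 1.94 ± 0.0424 TPM.

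All 7 regulators of ER stress were higher in replicate 2, beside 46.4% of all genes, with a median of 0.27. Atf4, the transcription factor of the integrated stress response, had 250 TPM in replicate 2 and 179 TPM in replicate 1, a log2 ratio of 0.53 (0.48 to 0.58), and was named after its value was seen. Ddit3 (CHOP), the highest of them, had 344 TPM in replicate 2 and 248 TPM in replicate 1, a ratio of 0.49 (0.43 to 0.55). The sensor kinase Eif2ak3 (PERK) was lowest, with 6.77 TPM in replicate 2 and 5.44 TPM in replicate 1. Of 18 other ER folding genes 12 were higher, with a median of 0.03, but 9 were higher in the FASTQ-derived counts. Calr, which encodes calreticulin, stood at 934 TPM in replicate 2 and 1036 TPM in replicate 1, above Hspa5. P4hb, the main protein disulfide isomerase, had 272 TPM in replicate 2 and 295 TPM in replicate 1. Canx, calnexin, had 254 TPM in replicate 2 and 274 TPM in replicate 1. These 3 had log2 ratios of -0.10, 0.07 and 0.01, and Ero1lb, an ER oxidase, was the lowest of its list at 9.31 ± 0.0707 TPM. Of 9 genes of prefoldin, Tcp1 and phosducin-like proteins 5 were higher and 4 lower (4 higher in the FASTQ-derived counts), between Pfdn5 at 173 ± 3.48 TPM and Pdcl at 20.6 ± 1.82 TPM. Of 6 mitochondrial folding genes 5 were lower, beside 53.6% of all genes, and Lonp1, Clpp and Clpx among them had intervals that included 0. Levels in this list lay between Trap1 at 41.4 ± 7.63 TPM and Clpb at 13.8 ± 2.71 TPM (SD, n = 2).

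The libraries also differed in markers of other cells. All 8 macrophage markers were detected, summing to 18433 TPM in replicate 2 and 16477 TPM in replicate 1. Only Lyz2, at 11649 TPM in replicate 2 and 8427 TPM in replicate 1, and Cd14, at 428 TPM in replicate 2 and 202 TPM in replicate 1, were higher in replicate 2, and the other 6 were lower, with a median log2 ratio of -0.25 over the 8. Of 9 neutrophil markers 2 were detected, with a sum of 9.88 TPM in replicate 2 and 75.3 TPM in replicate 1 and Ly6g at 0 counts. All 7 stromal markers were detected, with a sum of 840 TPM in replicate 2 and 743 TPM in replicate 1. Of 5 T cell markers Cd4 alone was detected, of 5 B cell markers Cd79b and of 4 dendritic cell markers Ccr7, and none of 5 erythroid markers was, with Hbb-bs, Hbb-bt and Hba-a2 at 0 counts. A ribosomal RNA entry, CT010467.1, took 4.25% of counts in replicate 2 and 1.37% in replicate 1. The part of these differences in the chaperone ratios was not tested, and in bulk RNA fewer cells of a type and less RNA per cell cannot be told apart. Serpinh1, the collagen-specific chaperone, had 95.3 TPM in replicate 2 and 82.9 TPM in replicate 1, and was named after its value was seen. In its list, the other ER folding genes, 12 of 18 were higher in replicate 2 (9 in the FASTQ-derived counts), beside 46.4% of all genes.

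Promoter sequences were at hand for 71 of the 86 genes, and the 250 bases before each start were searched for 3 arrangements, each read on both strands. Among the genes not searched were Hspa8, Hspa9, Hspa13, Hsp90aa1, Hsp90ab1 and Cct4. GAANNTTC stood in 13 of the 71 genes, or 18.3%, and in 7.73% of 27025 genes with a promoter. TTCNNGAA, which can overlap it, stood in 7, or 9.86%, beside 8.11%. Either was found in 17, or 23.9%, beside 14.5%, and Hspa1a with Hspa1b and Hspd1 with Hspe1 are pairs whose windows share sequence. CCAAT and CCACG with 9 bases between them, the element through which Atf6 acts on ER chaperone genes, stood in 4 members, or 5.63%, and in 35 of all genes, or 0.130%. These 4 genes all encode ER proteins, whereas Pdia3, Pdia4, Pdia5, Dnajb9, Dnajb11, Dnajc1 and Dnajc10, also of the ER, had no match. The 5 matches of the 4 genes are shown because the spacer differs in each. The capitals, the CCAAT and CCACG boxes, are shared by construction. Each run is read 5′ to 3′ from CCAAT on the strand given.

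Hspa5, chr2:34772025-34772043, plus strand: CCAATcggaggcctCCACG

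Hsp90b1, chr10:86705533-86705551, plus strand: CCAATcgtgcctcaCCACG

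Hsp90b1, chr10:86705638-86705656, minus strand: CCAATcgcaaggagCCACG

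Dnajc3, chr14:118937827-118937845, plus strand: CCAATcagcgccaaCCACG

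Pdia6, chr12:17266491-17266509, plus strand: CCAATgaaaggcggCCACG

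The match of Hspa5 lay 46 bases before the RefSeq start, that of Pdia6 79, that of Dnajc3 86, and those of Hsp90b1 88 and 193. The one of Hspa5 lies inside the first exon of Hspa5-201, a transcript that starts further upstream. The 4 genes did not lie on one side between the libraries, since Hspa5 at 0.60 and Pdia6 at 0.14 (0.09 to 0.19) were higher in replicate 2 and Hsp90b1 and Dnajc3 were lower. Of the genes searched, the 15 with GAANNTTC or TTCNNGAA and a ratio had a median log2 ratio of 0.12, and the 44 without had -0.02. These medians are descriptions, and a match of letters is not shown to be a bound site.

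Transcripts of 1 gene were compared for the 52 members at 10 TPM or more. The leading transcript was the same in both libraries for 49 of them and the same in both quantifications for 45, and it was annotated as protein-coding for 48. Hspa8-201 led in the alignment-derived table with 66.8% of Hspa8 TPM in replicate 2 and 67.7% in replicate 1, but took 98.3% and 99.2% in the FASTQ-derived table, so the share of Hspa8-202 depended on the quantification. For Hsp90aa1 the leader itself changed, with Hsp90aa1-202 at 82.2% in replicate 2 and 85.3% in replicate 1 in the alignment-derived table and 31.9% and 34.6% in the FASTQ-derived table, where Hsp90aa1-201 led. Cct7 and Cct8 had large shares in transcripts annotated for nonsense-mediated decay, a route that destroys RNAs with early stop codons. That share was 42.0% for Cct7-202 in replicate 2 and 37.9% in replicate 1, against 36.8% and 34.7% in the FASTQ-derived table. The decay transcript of Cct8 took 30.6% in replicate 2 and 26.4% in replicate 1, but 53.5% and 52.6% in the FASTQ-derived table, where it led the gene. Dnajc15-201, with the same annotation, took 75.8% of its gene in replicate 2 and 83.1% in replicate 1. No transcript of Cct6a is annotated as protein-coding in this release.

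**Figure D4:**
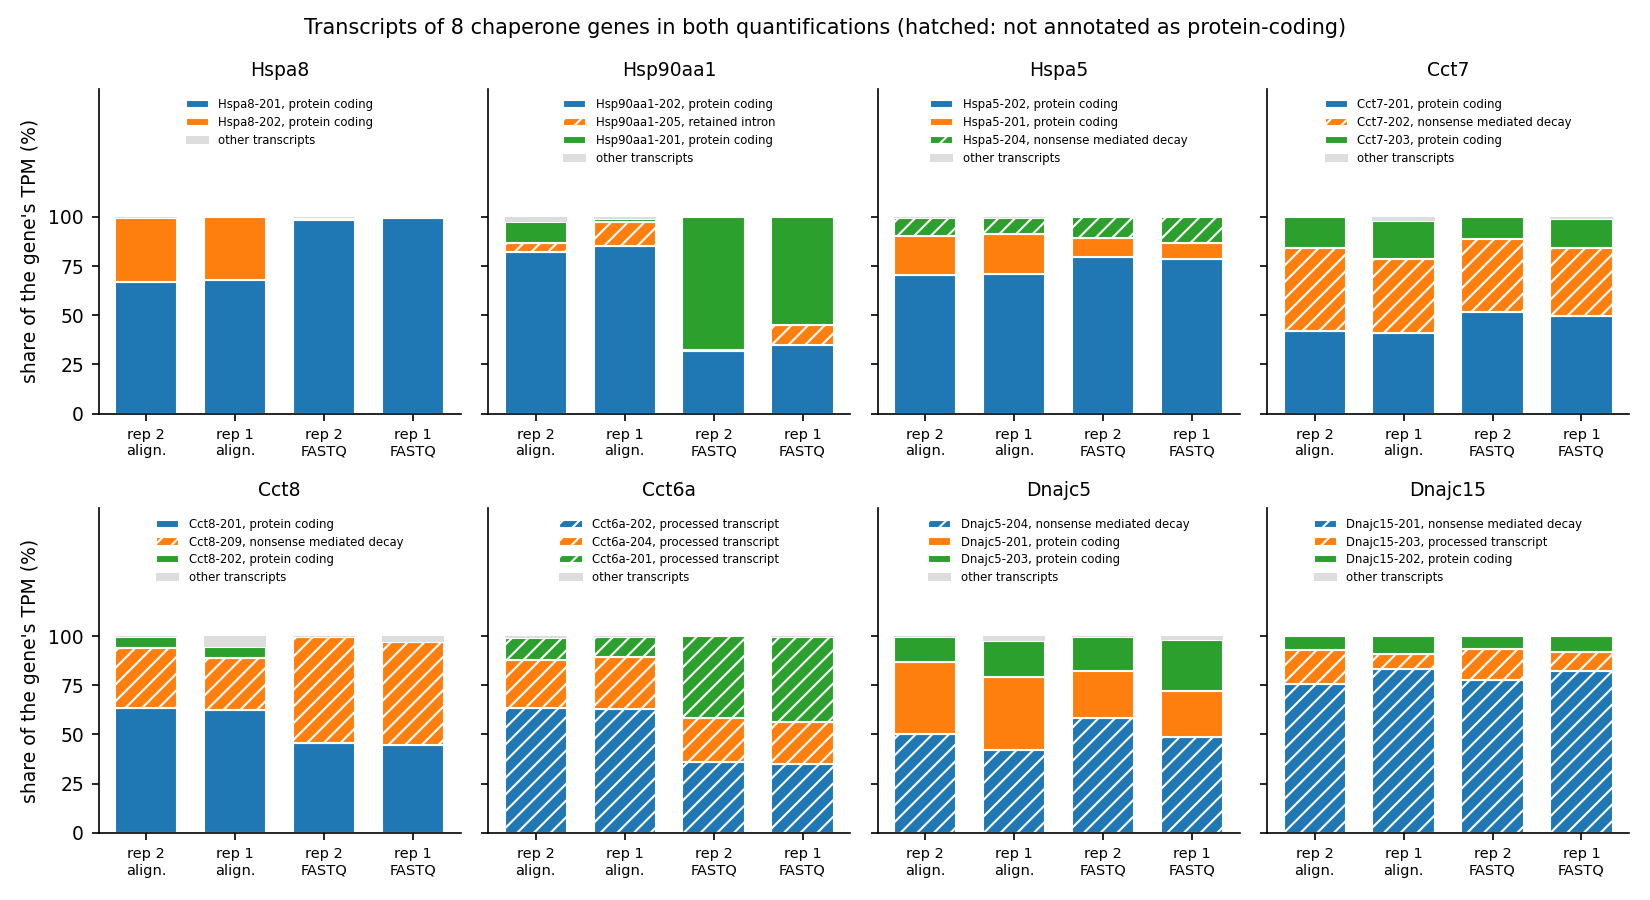
Share of each transcript in the TPM of its gene (percent), for 8 chaperone genes chosen after their values were seen, in replicate 2 and replicate 1 of the alignment-derived and then of the FASTQ-derived quantification. Hatched parts are transcripts not annotated as protein-coding, and the grey part holds the remaining transcripts. Hsp90aa1-202 holds 82.2% in replicate 2 of the alignment-derived table and 31.9% in replicate 2 of the FASTQ-derived table.

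At the level of genes the quantifications were close. After centring on the median of protein-coding genes, none of the 52 members at 10 TPM or more differed 1.5-fold between them, beside 1.27% of 6918 protein-coding genes. The 3 furthest were Cct6a at -0.40 on the log2 scale of alignment-derived over FASTQ-derived TPM, Dnajc17, a splicing-linked J protein, at 0.28 and Dnajc14 at -0.28. Dnajc14 shares 1114 exon bases on opposite strands with Ormdl2.

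**Figure D5:**
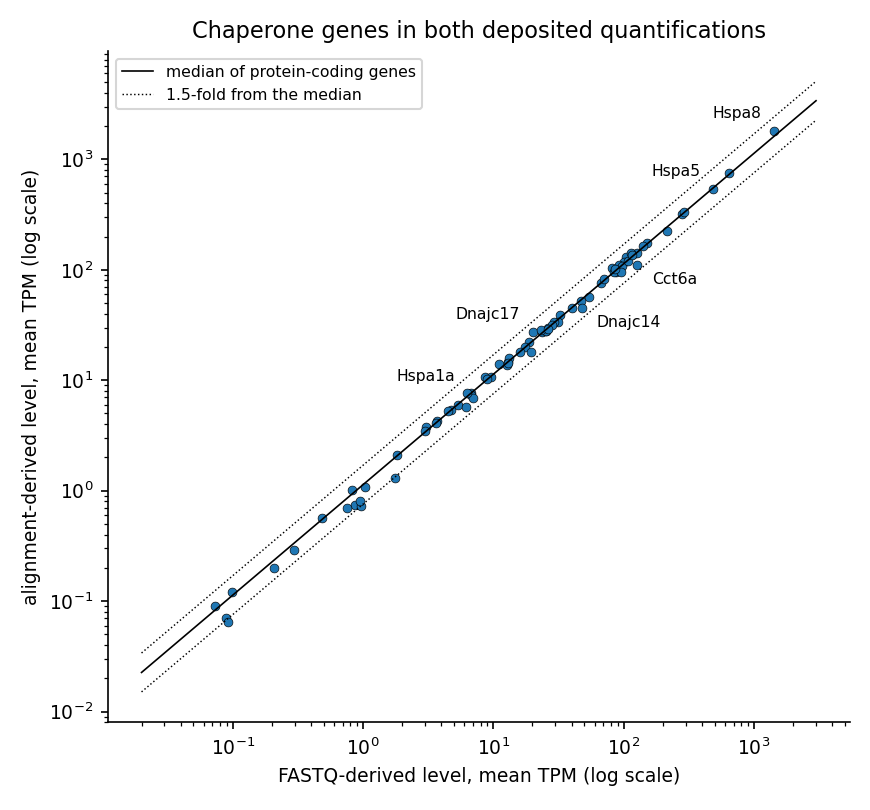
Mean level of each chaperone gene over both libraries in the alignment-derived table (vertical axis, TPM, log scale) against the FASTQ-derived table (horizontal axis, TPM, log scale), 1 point per gene. The solid line is the median of protein-coding genes and dotted lines lie 1.5-fold from it. Genes above 10 TPM all lie between the dotted lines, Cct6a nearest to the lower one.

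Several chaperone transcripts share sequence with other genes, among them processed pseudogenes, which could take or give reads. Of the 86 genes 23 had over 10% of their 31-base words in any other gene, on either strand. For 6 the share was over 50%, and the median was 1.84%. These counts are not of pseudogenes alone, since Hspa1a shared most with Hspa1b, Hspa1l with Gm10501 and Dnaja4 with Wdr61. For Hspa8 the share was 44.8%, most of it with Gm15459, a processed pseudogene at 2.88 TPM in replicate 2 and 2.94 TPM in replicate 1. For Hsp90aa1 it was 51.5%, most of it with Gm12346 at 0.780 TPM in replicate 2 and 1.12 TPM in replicate 1. For Hspd1 it was 53.1%, most of it with Hspd1-ps3 at 0.620 TPM in replicate 2 and 0.830 TPM in replicate 1. None of the 15 pseudogenes that the symbol rule left out reached 1 TPM in both libraries.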

How the data were processed

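The 2 macrophage libraries of polyadenylated RNA were made from 1 µg of RNA each, per the labels. Quantification used mm10 and the M21 release of GENCODE, per the deposited notes, and which tools were run was not given in the sources used here. Deposited by the authors were expected counts and TPM per gene and transcript from a transcriptome alignment, and estimated counts and TPM per transcript from 4 FASTQ files, per the file headers and notes. Values come from the alignment-derived tables unless stated, with expected counts rounded to whole numbers; the FASTQ-derived table, summed per gene, was an alternative.

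All 55536 gene entries matched the annotation; 26248 entries with numeric names and 97 spike-in entries were left out. Counts were scaled with TMM factors (edgeR 4.0.16, R 4.3.3), alternatives being the size factors of DESeq2 1.42.0 and total counts, and 0.5 was added before the log2 ratio. Ratio intervals are exact (Clopper-Pearson) at 95%. Since reads are not independent molecules, counting error is all that intervals and floors cover. The depth, 30780681 counts in replicate 2 and 41938419 in replicate 1, sets this precision. No p-value was computed, since each side of the comparison is 1 library. Medians of ratios used genes with a mean of 20 or more counts, and fold counts those with 20 or more in each library. The ratio step was tested on simulated data. Words of 31 bases came from GENCODE transcripts, and promoters from RefSeq tables of GRCm38.p6, matched by symbol. Where a gene had several start sites, any match counted. The TTCNNGAA search was added after the first values were seen, and protein motifs were not analysed here. Tables were handled in Python 3.11.15 (pandas 2.3.3, numpy 2.4.6, scipy 1.17.1) and plots drawn with matplotlib 3.10.9.

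The members and lists were chosen with earlier results of these data known. Named genes were members with a mean of 100 TPM or more, the highest and lowest detected of each family, the 5 highest and 5 lowest ratios at a mean of 100 or more counts, the 3 most different between the quantifications among those at 10 TPM or more, 19 chaperones whatever their value, and, of other lists, the highest, the lowest and Hsf1, Tcp1, P4hb, Canx and Calr. For the ER folding list 2 symbols, Ero1a and Ero1b, were found only under older names.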

Additional observations from a re-analysis of the deposited data

How the results depend on the processing

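The number of detected chaperones lay between 58 (5 TPM) and 71 (0.5 TPM), and was 66 in the FASTQ-derived table and 68 in each library alone. The median level of 18.1 TPM became 29.9 TPM over detected members only, and was 16.8 TPM in the FASTQ-derived table, 17.0 TPM without replicate 1 and 19.3 TPM without replicate 2. The share of 0.703% of TPM became 0.604% of FASTQ-derived TPM and was 1.01% as a share of expected counts, and was 0.699% without replicate 1 and 0.707% without replicate 2. The median log2 ratio lay between -0.04 and -0.00 under every scaling, filter, added count and table tried. At 2-fold, Hspa1a was called under each scaling and filter, but 0 genes were called higher in the FASTQ-derived counts, and 1 gene, Hspb2 with 0 counts in replicate 2 and 1 in replicate 1, was called lower with no filter on low counts. At 1.5-fold, 3 to 5 genes were higher under all alternatives, with Dnaja4 in place of Hspa5 in the FASTQ-derived counts, and 3 were lower with no filter, Dnajb7, Hspb2 and Hspb9, at 11 counts or fewer. Of 88 recomputed ratios of 44 named genes 9 left their counting interval, all in the FASTQ-derived counts, and none that passed 1.5-fold changed sign, whereas Hspa1l moved from -0.00 to 0.06 in the FASTQ-derived counts. TMM, DESeq2 and total-count scaling gave each family and list the same number of genes higher in replicate 2. Of 44 levels 31 moved by more than 1 SD in the FASTQ-derived table, and 4 of the 44 were higher there. These levels were compared without centring. The median log2 of alignment-derived over FASTQ-derived TPM was 0.18 for protein-coding genes. The causes were not tested. No paired analysis was possible because there is 1 group. Depth limits the ratios of Hspa12a, Hspb1 and Hspb11, and leaving out a library leaves no ratio.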
